A study of Mus musculus with 48 samples.

Results

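The cortex of mice with the Q140 allele was compared with wild-type cortex, with intact Msh3 in both groups. The 16 libraries were those labelled as heterozygous Q140 knock-in cortex (8) and wild-type cortex (8), out of 48 libraries of 6 genotypes, and every gene that passed a filter on low counts was described, 19547 of the 48795 in the counts table. Each library came from the cerebral cortex of a mouse of the C57BL/6 background, 12 months old, and each group held 4 females (F1 to F4) and 4 males (M1 to M4). The Q140 mice carried 1 knock-in Htt allele and 1 normal allele, and the wild-type (WT) mice carried none; no treatment was named for either. The other 4 groups were labelled Q140 Msh3+/-, Q140 Msh3-/-, Msh3+/- and Msh3-/- (8 libraries each). Their libraries entered the same model, so they share in the estimate of spread behind each p, and the called genes were also looked at in them.

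Htt encodes huntingtin, a large scaffold protein present in all cell types, and an expanded CAG repeat in its first exon causes Huntington disease. In a knock-in mouse the repeat sits in the mouse gene itself, so the mutant protein is made under the normal Htt promoter, in every cell that uses it. Striatal projection neurons are the cells best known to be affected, and the cortical neurons that project to them carry the mutant protein as well. Msh3 is a DNA mismatch repair gene that takes part in the lengthening of CAG repeats in somatic cells. The repeat length of each mouse was not analysed here.

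The Q140 libraries held between 45.1 and 55.7 mega (M) counts, and the WT libraries between 42.8 and 68.3 M counts. Levels are given as CPM, counts scaled to 1 M of the normalized library total, and changes as the log2 fold change of Q140 over WT with its standard error, so that a positive value is higher in Q140. The libraries had the markers of cortex: Slc17a7, the vesicular glutamate transporter of cortical excitatory neurons, had between 1270 and 1400 CPM in Q140 and between 1170 and 1410 CPM in WT. Drd1, a dopamine receptor of striatal neurons, had between 5.26 and 7.9 CPM in Q140 and between 5.61 and 7.86 CPM in WT. The labels give cortex at 12 months everywhere except in the extraction protocol, which speaks of striatum and of a younger age. The mitochondrial genome took from 3.66 to 5.66% of the counts in Q140 (median 4.39%) and from 4.48 to 6.13% in WT (median 4.96%). The wells of the plate were not balanced between the groups: of the 5 plate columns used, column 1 held 3 Q140 and 0 WT libraries, and column 3 held 0 Q140 and 4 WT libraries. WT F3 and F4 have sample names that begin differently from those of the other WT libraries. In the Q140 group, the names of F4 and M4 likewise begin differently from those of the other Q140 libraries. WT M2 stood apart by RNA of the pituitary, as given below with Prl. In tissue RNA, fewer cells of a type and less RNA per cell cannot be told apart. The labels do not state that each library came from a separate mouse, so p-values measure the spread between these libraries.

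Htt itself was not called. It had 225 (lowest), 242 (median) and 256 CPM (highest) in Q140 and 230, 247 and 260 CPM in WT, ranges that overlap almost entirely (log2 fold change -0.02 ± 0.0356, edgeR adjusted p = 0.915). The count does not separate the knock-in from the normal allele and so does not check the genotype. Msh3 had 20.8, 21.5 and 23.7 CPM in Q140 and 20.5, 22.7 and 23.5 CPM in WT (-0.04 ± 0.0482), which also overlap.

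Among the genes called lower in Q140 cortex were Camk2n1 and Camk2a of calcium/calmodulin-dependent kinase signalling, Slc1a2, Glul and Slc4a4 of astrocytes, the mTOR inhibitor Ddit4l and the neuropeptide gene Cartpt. Among those called higher were Enpp6, Zfp488 and Anln of the oligodendrocyte lineage, the channel-like gene Tmc3, and 3 genes close to Htt. In all, 20 genes passed an adjusted p under 0.05 in edgeR, 0.102% of those tested. Of these, 8 were higher (0.0409% of genes tested) and 12 lower (0.0614%). Before adjustment, 1720 genes (8.8%) had a p under 0.05. DESeq2 called 34 and limma-voom 18, with 18 of the 20 genes among the calls of each. A fit of only the 16 Q140 and WT libraries made 21 calls, 13 of them among the 20. Anln, C230034O21Rik, Slc4a4, Glul and H2-T-ps were not called there (adjusted p = 0.0565, 0.0712, 0.112, 0.107 and 0.107), and Prl was not tested. Over all genes the log2 fold changes were small and centred: the median was 0.001, the median size 0.061, and among the 15113 genes with a mean of at least 1 CPM the 95th percentile of the size was 0.21. Of the 20 called genes, 15 are protein coding, 4 had a size over 1 and 11 a size under 0.5.

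**Figure D1:**
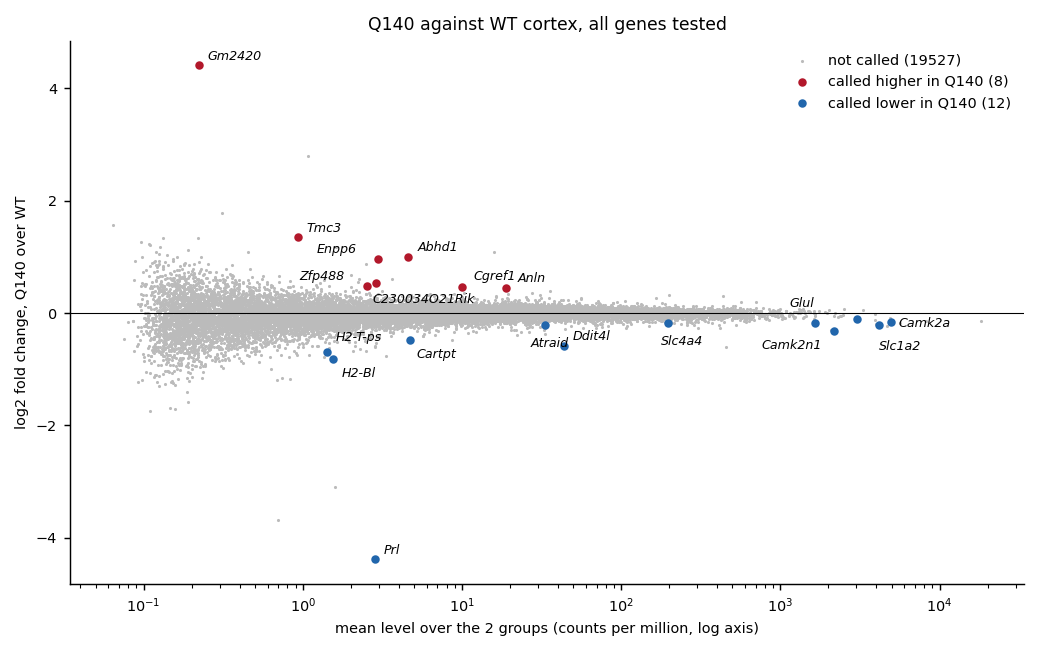
Log2 fold change of Q140 over WT (vertical axis) against the mean CPM over both groups (horizontal, log axis) for the 19547 genes tested; each point is a gene. The 8 genes called higher are red and the 12 called lower are blue. The called genes of high level, Camk2a, Slc1a2, Camk2n1 and Glul among them, lie below 0, and those called higher have low to moderate levels.

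The 16 libraries were used to ask which genes separate the groups completely. In 15 genes (0.0767% of those tested) the 8 Q140 libraries were all beyond the 8 WT libraries, and 10 of these were called. The other 5, named after their values were seen, did not pass the test: Sult2b1 at a log2 fold change of 0.27, H2afy at 0.11, Padi2 at -0.18, Osbpl10 at 0.14 and Ppp1r1b at -0.18 (edgeR adjusted p = 0.183, 0.215, 0.51, 0.0916 and 0.297). Ppp1r1b encodes DARPP-32, a phosphatase inhibitor of dopamine-responsive neurons.

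**Figure D2:**
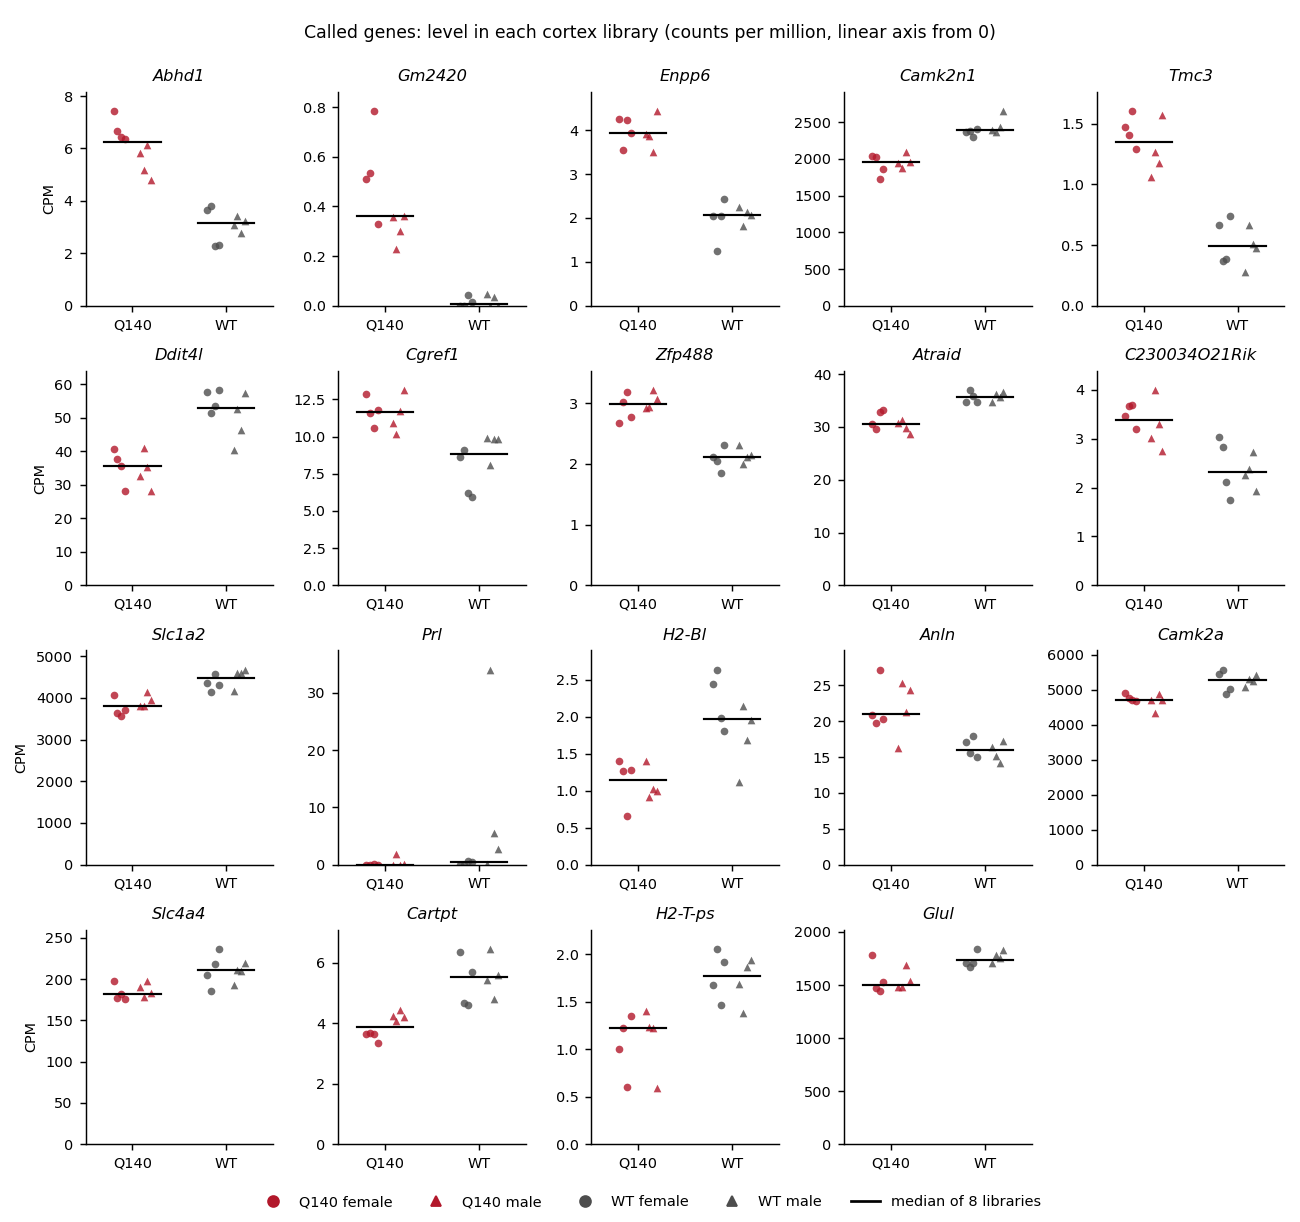
CPM in each of the 16 libraries for 19 called genes, in order of p, with Q140 left of WT (circles, females; triangles, males; line, median of 8 libraries; axes linear from 0). In 10 of the 19 panels the groups do not overlap; in the Prl panel a single WT library, M2, reaches 34 CPM.

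Camk2n1 and Camk2a, of calcium/calmodulin-dependent kinase signalling, were lower in Q140. CaMKII is a kinase of excitatory synapses that is switched on by calcium-bound calmodulin and takes part in synaptic plasticity. Camk2n1 (chromosome 4, 138454314 to 138460123, plus strand; positions here and below follow the GENCODE M21 annotation of GRCm38), which encodes a small protein inhibitor of CaMKII, had 1720, 1950 and 2100 CPM in Q140 and 2300, 2390 and 2650 CPM in WT. No Q140 library reached the lowest WT library, and the log2 fold change was -0.31 ± 0.0395 (edgeR adjusted p = 6.9e-07), a decrease of 19.6%. Camk2a, the alpha subunit of the kinase, had 4340, 4710 and 4900 CPM in Q140 and 4880, 5280 and 5570 CPM in WT. Only the edges of these ranges touch: 7 Q140 libraries lay below every WT library (-0.15 ± 0.0331, adjusted p = 0.0294).

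Other subunits and kinases of the pathway were not called. A list of 15 genes for CaMKII, its inhibitors and related genes, not all of which are reported here, held 0 that rose, and its median log2 fold change was -0.015, against 0.001 over all genes tested. Camk2b, Camk2g and Camk2d, the other subunits, had log2 fold changes of 0.02 ± 0.0259, 0.01 ± 0.0369 and 0.01 ± 0.0677. Camk2n2, the other inhibitor, had 113 CPM on average in both groups. Camkk2 and Camk4, kinases of the same cascade, had -0.13 ± 0.0348 and -0.18 ± 0.0524, and Nrgn, a calmodulin-binding protein of dendrites, -0.11 ± 0.0392; none of these passed the test (adjusted p = 0.194, 0.243 and 0.365). The summed level of 8 markers of cortical glutamatergic neurons, which include Camk2a and Nrgn, ran from 7710 to 8370 CPM in Q140 and from 8400 to 9120 CPM in WT. Outside Camk2a none of the 8 was called, and the median over the list was -0.019. Camk2n1 was called in all 16 fits that left out 1 library; Camk2a was called in 7 of them, and was not called with plate column in the model (log2 fold change -0.12).

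Slc1a2, Glul and Slc4a4, genes that are high in astrocytes, were lower in Q140. Astrocytes clear glutamate from synapses and return it to neurons as glutamine. Slc1a2, the main glutamate transporter of astrocytes (chromosome 2, 102658659 to 102790784), had 3550, 3810 and 4140 CPM in Q140 and 4150, 4460 and 4670 CPM in WT. The groups did not overlap (-0.21 ± 0.041, adjusted p = 0.0114), a decrease of 13.3%. Glul, glutamine synthetase, had 1440, 1500 and 1790 CPM in Q140 and 1670, 1730 and 1840 CPM in WT, with 6 Q140 libraries below every WT library and 2 within the WT range (-0.17 ± 0.039, adjusted p = 0.0484). Slc4a4, a sodium bicarbonate cotransporter that is high in astrocytes, had 176, 182 and 198 CPM in Q140 and 186, 210 and 236 CPM in WT, with 5 Q140 libraries below every WT library (-0.18 ± 0.0399, adjusted p = 0.0408).

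Of 20 astrocyte markers, 3 fell and 0 rose, against 0.0614% and 0.0409% of all genes tested, in a list chosen with earlier results of these data known. In this list 18 had a log2 fold change below 0 with a median of -0.093, against a median of 0.001 and 50.3% of genes above 0 among all genes tested. The others included Slc1a3, the second glutamate transporter (-0.09 ± 0.0474), Gja1, the gap junction protein connexin (-0.11 ± 0.0464), Aqp4, the water channel (-0.05 ± 0.0778), and Gfap, an intermediate filament (-0.08 ± 0.116), none of them called. The sum of the 20 markers ran from 9790 to 11600 CPM in Q140 (median 10400) and from 11100 to 12000 CPM in WT (median 11700). This sum includes the 3 called genes, of which Slc1a2 alone had means of 3840 CPM in Q140 and 4430 CPM in WT. The list's median was -0.099 for Q140 Msh3+/- over Msh3+/- and -0.083 for Q140 Msh3-/- over Msh3-/-, comparisons that share no library with this one. Of 18 genes linked to reactive astrocytes that were tested, none was called and the median was -0.03. Serpina3n had 21.6 ± 19.3 CPM in Q140 and 10.2 ± 1.4 CPM in WT (SD, n = 8 each; adjusted p = 0.297). The Q140 mean is carried by F3 and M4, at 49.6 and 55.9 CPM, and the other 6 Q140 libraries ran from 9.42 to 13.1 CPM. Hbb-bs, a haemoglobin gene, was also high in these libraries, at 5.17 CPM in F3 and 5.09 CPM in M4, as in F4, at 3.37 CPM; the part of blood in this value was not tested. Slc1a2 was called in all 16 fits without 1 library, Slc4a4 in 6 and Glul in 4. With plate column in the model their log2 fold changes were -0.21, -0.19 and -0.20, and none passed.

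In the oligodendrocyte lineage, 3 genes rose, and no other gene of the lineage lists was called. Oligodendrocytes arise through life from precursors that pass through a premyelinating stage before they wrap axons. Enpp6, a choline phosphodiesterase known as a marker of newly forming oligodendrocytes, had 3.49, 3.92 and 4.43 CPM in Q140 and 1.26, 2.06 and 2.42 CPM in WT. Every Q140 library was above every WT library, and the log2 fold change was 0.96 ± 0.12 (adjusted p = 6.82e-07), a 1.95-fold level. Zfp488, a zinc finger regulator of oligodendrocyte differentiation, had 2.67, 2.98 and 3.21 CPM in Q140 and 1.86, 2.11 and 2.31 CPM in WT, again without overlap (0.49 ± 0.091, adjusted p = 0.00429). Anln, anillin, which in brain is a component of myelin that binds septins, had 16.3, 21 and 27.1 CPM in Q140 and 14.1, 16 and 18 CPM in WT, with 7 Q140 libraries above every WT library (0.45 ± 0.0955, adjusted p = 0.0294).

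The 150 bases upstream of the start of these 3 genes are shown because the genes rose together; they are RefSeq windows on GRCm38, written 5′ to 3′ on the strand of the gene. Capitals mark the GC box GGGCGG, a binding motif of Sp factors, or CCGCCC where it lies on the opposite strand. They lie at chr8:46986737-46986886 (plus strand), chr14:33978765-33978914 (minus) and chr9:22389207-22389356 (minus).
Enpp6: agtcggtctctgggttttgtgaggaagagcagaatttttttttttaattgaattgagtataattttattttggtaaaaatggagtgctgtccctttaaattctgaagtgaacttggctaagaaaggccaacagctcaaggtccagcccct
Zfp488: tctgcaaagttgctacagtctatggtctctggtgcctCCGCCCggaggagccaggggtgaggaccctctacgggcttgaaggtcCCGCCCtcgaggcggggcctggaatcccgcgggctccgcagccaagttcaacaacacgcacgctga
Anln: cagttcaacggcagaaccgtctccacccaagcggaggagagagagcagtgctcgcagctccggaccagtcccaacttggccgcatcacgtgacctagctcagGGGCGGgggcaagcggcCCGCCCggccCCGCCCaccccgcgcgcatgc
The Zfp488 window holds 2 GC boxes, the Anln window 3 and the Enpp6 window none. The windows differ in base composition too, with 64.7% G and C for Zfp488, 70.7% for Anln and 38% for Enpp6. Of the 20 called genes, 14 had a RefSeq window. Of these, 9 held a GC box within 250 bases upstream, on either strand, against 32.7% of all 32851 windows of that length. These shares are not like for like, and no test was applied. Each called gene has the window nearest its M21 start, 47779 bases away in Slc1a2. The background holds every RefSeq window, whether or not its gene was tested. A match of letters says nothing about binding.

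Of 14 tested genes of newly formed oligodendrocytes, 2 rose and 0 fell, against 0.0409% and 0.0614% of all genes tested, and the log2 fold changes centred on 0.027 (median). The remaining 12 stayed within -0.07 and 0.16, among them Gpr17, a receptor of premyelinating cells (-0.03 ± 0.0927), Bcas1 (-0.05 ± 0.107), Bmp4 (0.03 ± 0.158) and Myrf, the regulator that switches on myelin genes (0.01 ± 0.078). The 12 genes of oligodendrocyte precursors gave no call and a median of -0.075; Pdgfra, their growth factor receptor, had -0.02 ± 0.0501. Of 20 myelin and mature oligodendrocyte genes, Anln was the only call and the median was -0.075. Mobp and Mbp, major myelin proteins, had -0.26 ± 0.111 and -0.05 ± 0.0823, and Mobp did not pass the test (adjusted p = 0.507). Tspan2, a tetraspanin of oligodendrocytes, had 34.7, 39.9 and 45.9 CPM in Q140 and 44.9, 47.5 and 54.3 CPM in WT (-0.28 ± 0.0663), and did not pass (adjusted p = 0.082). The sum of the 20 myelin genes ran from 1970 to 2280 CPM in Q140 and from 1930 to 2810 CPM in WT. Enpp6 and Zfp488 were called in all 16 fits without 1 library and Anln in 9; Zfp488 was not called with plate column in the model (0.47).

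**Figure D3:**
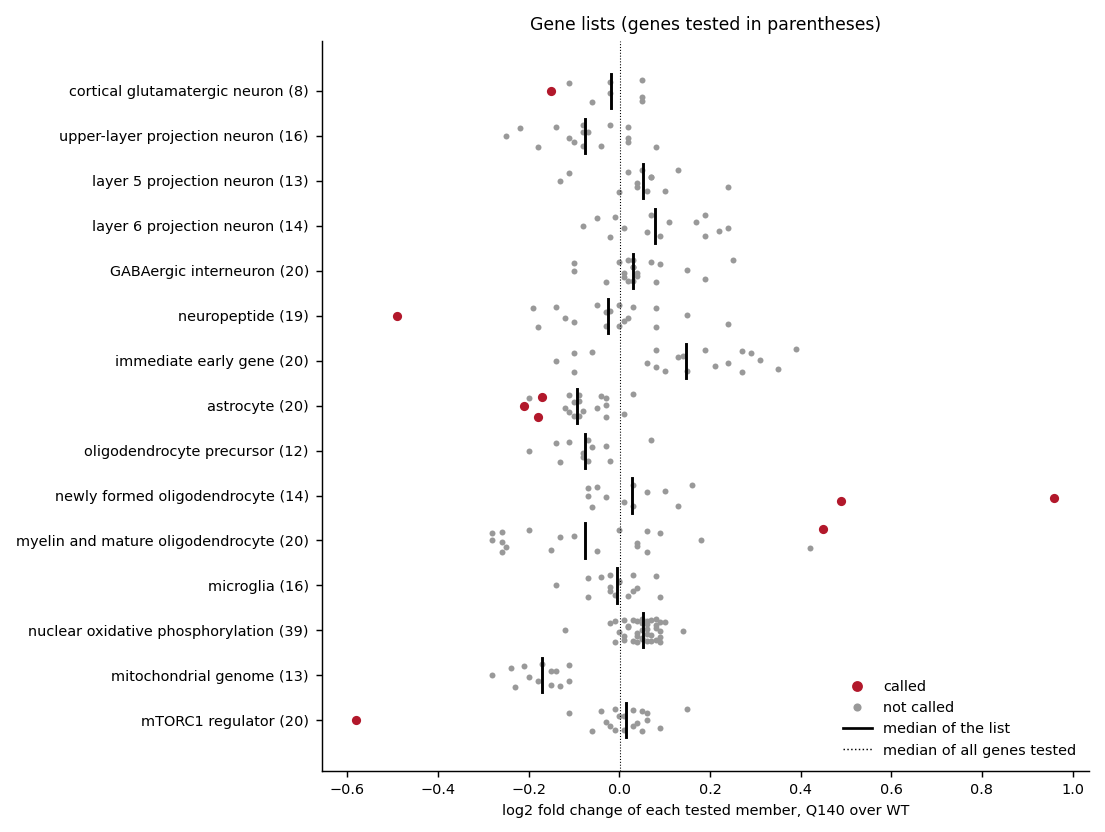
Log2 fold change of Q140 over WT for each tested member of 15 gene lists (points; red, called), with the median of the list (bar) and of all genes tested (dotted line). The called genes sit apart from the bulk of their lists in Enpp6 and Zfp488 (newly formed oligodendrocyte), Ddit4l (mTORC1 regulator) and Cartpt (neuropeptide), whereas the astrocyte list lies below 0 in 18 of 20 genes.

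Ddit4l fell in Q140. It encodes an inhibitor of mTORC1, the kinase complex that couples nutrients and growth factors to protein synthesis. Levels were 28, 35.5 and 40.8 CPM in Q140 and 40.4, 53 and 58.1 CPM in WT, and 6 Q140 libraries lay below every WT library. The log2 fold change was -0.58 ± 0.0904 (adjusted p = 2.78e-04), a decrease of 33.2%. Of 20 regulators of mTORC1, Ddit4l was the only call and the median was 0.014. Ddit4, its closest relative, had 0.15 ± 0.144, Mtor 0.05 ± 0.0278, and Tsc1 and Tsc2, which hold the complex in check, 0.06 ± 0.0321 each.

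Cartpt, which encodes the neuropeptide precursor CART, had 3.35, 3.87 and 4.45 CPM in Q140 and 4.62, 5.52 and 6.45 CPM in WT. The groups did not overlap (-0.49 ± 0.108, adjusted p = 0.0419), yet the call was made in 5 of the 16 fits without 1 library and was lost with plate column in the model (-0.52). Of 19 neuropeptide and granule genes tested it was the only call, and the median was -0.025; Npy had -0.10 ± 0.0657, Sst 0.03 ± 0.0481 and Cck 0.08 ± 0.041. The Cartpt promoter is a known target of CREB, the cAMP-responsive factor, and 30 bases around its full CRE motif are shown for that reason, from chr13:99900777-99900806 on the minus strand of GRCm38 with the motif in capitals.
Cartpt: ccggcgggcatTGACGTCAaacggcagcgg
The RefSeq start used for Cartpt is 408 bases from its start in GENCODE M21. All 150 bases upstream of that RefSeq start, the motif among them, lie in M21 exons. The motif TGACGTCA, which reads the same on both strands, occurred in 1.55% of the 32851 RefSeq windows of 250 bases upstream.

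Tmc3, a member of the transmembrane channel-like family, had 1.06, 1.35 and 1.6 CPM in Q140 and 0.28, 0.489 and 0.739 CPM in WT. The groups did not overlap, and the log2 fold change of 1.36 ± 0.172 (adjusted p = 7.34e-07) corresponds to a 2.56-fold level. Single libraries held from 56 to 90 counts in Q140 and from 12 to 50 in WT. Gm16638, a gene model on the opposite strand within Tmc3, had -0.20 ± 0.0941 and was not called. Whether counting used the strand of the reads is not given in the sources used here, so reads of overlapping genes on opposite strands may not have been told apart. C230034O21Rik, an antisense RNA on chromosome 3 that overlaps Fat4, had 2.76, 3.39 and 3.99 CPM in Q140 and 1.74, 2.32 and 3.03 CPM in WT, with 6 Q140 libraries above every WT library (0.53 ± 0.101, adjusted p = 0.00654). Fat4, a protocadherin on the other strand, had 0.11 ± 0.0707.

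H2-Bl and H2-T-ps, neighbouring class I histocompatibility genes on chromosome 17 that the annotation lists as pseudogenes, were lower in Q140. H2-Bl had 0.659, 1.14 and 1.4 CPM in Q140 and 1.12, 1.97 and 2.63 CPM in WT (-0.82 ± 0.171, adjusted p = 0.0219), and the ranges overlapped by 1 low WT library. H2-T-ps had 0.594, 1.22 and 1.4 CPM in Q140 and 1.38, 1.77 and 2.05 CPM in WT (-0.70 ± 0.157, adjusted p = 0.0483), with 7 Q140 libraries below every WT library. These genes have near-identical relatives, so their counts are uncertain. The 20 interferon and MHC genes held 1 call, H2-Bl, and had a median of -0.059. H2-K1 and H2-D1, the classical class I genes, had -0.01 ± 0.1 and 0.02 ± 0.0659, and B2m, their light chain, -0.06 ± 0.0627. H2-Bl was called in 11 of the 16 fits without 1 library and H2-T-ps in 5. Neither pseudogene was called with plate column in the model (-0.88 and -0.67) or with plate row.

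Close to Htt, called genes made up a larger share than elsewhere: Abhd1, Gm2420 and Cgref1 were higher and Atraid was lower. Genes near the knock-in locus are inherited together with the allele, so an effect of the allele and a difference in the linked chromosome segment cannot be told apart. Within 20 Mb of Htt (chromosome 5, 34761740 to 34912534), 4 of 335 tested genes were called (1.19%), against 16 of 19211 elsewhere (0.0833%); this count was made with the positions of the calls already known, and no test was applied. Abhd1, a hydrolase-family gene 3.81 Mb from Htt, had 4.79, 6.25 and 7.43 CPM in Q140 and 2.27, 3.15 and 3.82 CPM in WT. The groups did not overlap, and the log2 fold change was 1.01 ± 0.0963 (adjusted p = 4.01e-10), a 2.01-fold level and the call of smallest p. Cgref1, which encodes a secreted calcium-binding protein, had 10.2, 11.7 and 13.1 CPM in Q140 and 5.95, 8.85 and 9.92 CPM in WT, also without overlap (0.47 ± 0.0761, adjusted p = 3.33e-04). In Abhd1 and Cgref1 the lowest WT levels were those of F3 and F4 (2.27 and 2.32 CPM for Abhd1, 6.19 and 5.96 CPM for Cgref1). The sample names of WT F3 and F4 begin differently from those of the other WT libraries, and the part of this was not tested. Atraid, a gene induced by retinoic acid in differentiating cells, had 28.8, 30.6 and 33.2 CPM in Q140 and 34.7, 35.7 and 36.9 CPM in WT (-0.21 ± 0.0397, adjusted p = 0.00499), without overlap and in the other direction.

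These 3 genes lie within a span of 121 kb, and Abhd1 and Cgref1 are 4.47 kb apart on opposite strands. Genes that overlap them did not pass: Preb, on the other strand of Abhd1, had -0.01 ± 0.0322, and Slc5a6, on the other strand of Atraid, 0.16 ± 0.0463 (adjusted p = 0.202). Gm2420, a transcribed pseudogene 2.03 Mb from Htt, was at the limit of detection in WT, with 0 to 2 counts a library, and had 12 to 44 counts in each Q140 library. In CPM it had 0.23, 0.36 and 0.784 in Q140 and 0, 0.00739 and 0.0467 in WT; the fitted log2 fold change of 4.41 ± 0.515 (adjusted p = 5.43e-09) depends on how such low counts are treated. Pisd, the tested gene next to it, had -0.07 ± 0.0439. On chromosome 5 outside the window, Slc4a4 was the only call.

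**Figure D4:**
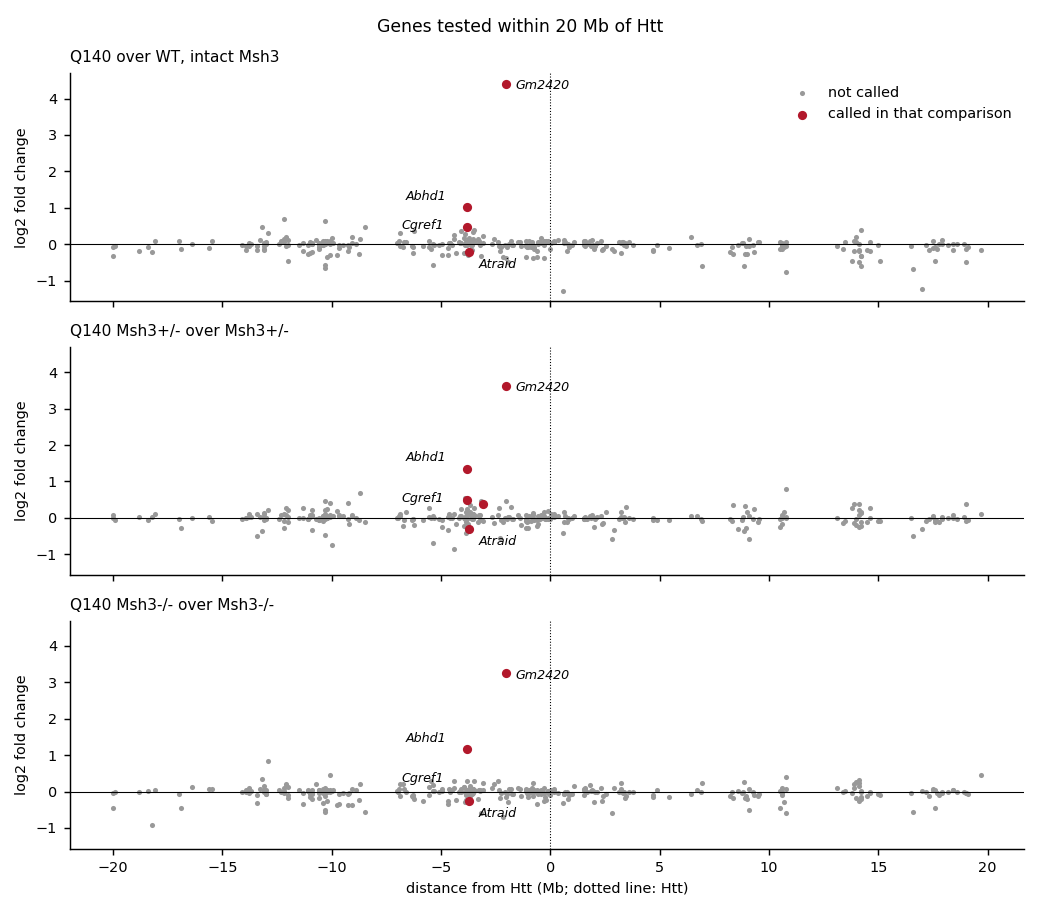
Log2 fold change (vertical) against distance from Htt in Mb (horizontal) for the 335 genes tested within 20 Mb, for Q140 over WT (top), Q140 Msh3+/- over Msh3+/- (middle) and Q140 Msh3-/- over Msh3-/- (bottom); red points were called in that comparison. Abhd1 and Gm2420 are high and Atraid is below 0 in all 3 panels.

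Prl, the pituitary hormone prolactin, was called lower, at -4.38 ± 0.91 (adjusted p = 0.019), but the value rests on few libraries. It had 0, 0 and 1.9 CPM in Q140 (lowest, median and highest) and 0, 0.528 and 34 CPM in WT, where 3 male libraries carried most of the counts. Without WT M2 the log2 fold change was -2.62 ± 0.97 (adjusted p = 0.438), and DESeq2 gave an adjusted p of 0.429. Of 8 pituitary genes 3 were tested, and their sum ran from 0.379 to 3.15 CPM in Q140 and from 0.419 to 45.2 CPM in WT. Over all 48 libraries the 3 highest sums were 45.2 CPM in WT M2, 14 CPM in Msh3+/- M1 and 7.32 CPM in WT M3. The sample names of these libraries share the beginning Mh3Q22, which no library of the Q140 group with intact Msh3 has. Q140 Msh3+/- M1, which carries the Q140 allele, has the same beginning and a sum of 3.68 CPM. What this beginning stands for is not stated, and its part in the value was not tested. Gh, growth hormone, had -3.68 ± 0.904 (adjusted p = 0.0836) and was likewise highest in WT M2, and Pomc had -1.17 ± 0.367 (adjusted p = 0.297). The part of attached pituitary tissue in other results was not tested beyond leaving out the libraries that carried it. Without WT M2 and 2 libraries of the Msh3+/- group, in which pituitary or choroid plexus genes exceeded 10 times their median, edgeR made 12 calls, 11 of them among the 20.

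Other tissues and cell types gave no call. The 8 choroid plexus genes tested summed to between 4.93 and 13.5 CPM in Q140 and between 6.58 and 22.2 CPM in WT, and their log2 fold changes centred on -0.208 (median). Blood genes, 4 tested, summed to between 0.12 and 7.45 CPM in Q140, the highest in Q140 F3, and between 0.0699 and 1.25 CPM in WT. Median log2 fold changes were -0.006 for 16 microglial genes, -0.085 for 20 endothelial and mural genes, -0.078 for 12 meningeal genes, -0.008 for 7 hippocampal genes and -0.034 for 8 thalamic genes.

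Among neurons, the classes defined by layer gave no call, with medians from -0.076 to 0.079. An unadjusted edgeR p under 0.05 was found in 31.2% of the upper-layer genes tested and 0% of the layer 5 and layer 6 genes. The share among all genes tested was 8.8%. The log2 fold changes of the 16 tested upper-layer projection neuron genes centred on -0.076 (median), with 12 of them below 0; Lamp5, a membrane protein of upper-layer neurons and some interneurons, had -0.22 ± 0.0639 (adjusted p = 0.243). The 13 layer 5 genes had a median of 0.053 and the 14 layer 6 genes of 0.079, with Crym at 0.24 ± 0.157 and Rprm at 0.22 ± 0.135. Among 20 genes of GABAergic interneurons the median was 0.03 and Htr3a, a serotonin receptor, had 0.25 ± 0.102. The 19 genes of striatal projection neurons, whose loss of expression in striatum is the best known expression change of Huntington disease models, had a median of -0.005 in this cortex, with Ppp1r1b at -0.18 ± 0.0578 and Penk at -0.18 ± 0.0748.

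Synaptic and channel genes gave no call either. The median log2 fold change was -0.034 for 26 glutamate receptor and postsynaptic genes, -0.022 for 12 GABA-A receptor genes, -0.028 for 23 potassium channel genes and -0.005 for 20 genes of synaptic vesicles and release. Grm3, a glutamate receptor that is high in astrocytes, had -0.15 ± 0.0427 (adjusted p = 0.241), and Kcna1, an axonal potassium channel, -0.23 ± 0.0735 (adjusted p = 0.297). The 20 immediate early genes, which neuronal activity switches on within minutes, had a median of 0.146 with wide errors, such as 0.31 ± 0.321 for Arc and 0.27 ± 0.329 for Fos. That median was -0.086 in females and 0.37 in males, and -0.18 for Q140 Msh3+/- over Msh3+/-, so its sign was not shared between these comparisons.

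Metabolic lists had small medians and no call. Of 39 nuclear genes of oxidative phosphorylation, 34 had a log2 fold change above 0 with a median of 0.053, and all 13 protein-coding genes of the mitochondrial genome were below 0 with a median of -0.171; none of either list was called. With plate column in the model these medians were 0.009 and -0.154. For Q140 Msh3+/- over Msh3+/- they were 0.046 and 0.024, and for Q140 Msh3-/- over Msh3-/- 0.044 and -0.088. Ribosomal protein genes (47) had a median of 0.059, cholesterol synthesis genes (25) of 0.057 and heat shock and chaperone genes (20) of 0.055, and with plate column in the model 0.006, 0.014 and 0.032. Mvk, a kinase of cholesterol synthesis, had 0.21 ± 0.0634 (adjusted p = 0.255), and Hspa8, the constitutive heat shock protein, 0.13 ± 0.0506 (adjusted p = 0.4). The 14 genes of mismatch repair and repeat expansion, with a median of -0.01, and the 14 tested partners of huntingtin, with -0.003, held no call.

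The 10 genes next in order of p did not pass and are given as values. Prdm8, a transcriptional regulator of cortical neurons, had 43.1, 45.8 and 51.2 CPM in Q140 and 36.1, 39.8 and 44.6 CPM in WT (0.23 ± 0.0527, adjusted p = 0.0555). Plpp3, a lipid phosphatase that is high in astrocytes, had 177, 202 and 224 CPM in Q140 and 205, 224 and 255 CPM in WT (-0.17 ± 0.0396, adjusted p = 0.0555). Acot7, a neuronal acyl-CoA thioesterase, had 181, 199 and 212 CPM in Q140 and 169, 176 and 189 CPM in WT (0.16 ± 0.0368). The groups overlapped in each of these. The log2 fold changes of the others were 0.60 for Rem2, a small GTPase, -0.19 for Erbin, -0.87 for Kremen2, -1.70 for Capn9, -0.28 for Tspan2, -3.68 for Gh and 0.20 for Jmjd6.

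Both sexes contributed to the calls. In a fit of the 16 libraries with a genotype effect for each sex (18237 genes tested), 11 genes were called in females (0.0603% of genes tested) and 4 in males (0.0219%) in edgeR. DESeq2 called 157 genes in females, 46 higher and 111 lower, and 7 in males, and limma-voom 14 and 3. The 19 of the 20 genes that this fit tested had the same direction in each sex, with an unadjusted p under 0.05 in each, which describes the libraries that chose them and is no independent check. Camk2n1 had -0.31 ± 0.0497 in females and -0.32 ± 0.0497 in males, Enpp6 1.0 ± 0.15 and 0.93 ± 0.15, and Tmc3 1.35 ± 0.239 and 1.36 ± 0.256. Cgref1 alone of the 19 had an unadjusted p under 0.05 for the sex difference: it had 0.67 ± 0.12 in females and 0.28 ± 0.115 in males. Its median was 11.7 CPM in Q140 females, against 7.39 CPM in WT females, and 11.3 CPM in Q140 males, against 9.86 CPM in WT males. Among the WT females, F3 and F4 had 6.19 and 5.96 CPM and F1 and F2 had 8.6 and 9.11 CPM, the last pair within the range of the WT males. F3 and F4 are also the WT libraries whose sample names begin differently from the rest; the part of this in the value was not tested. No gene passed the test of a sex difference in the genotype effect: the interaction had 0 calls in edgeR (smallest adjusted p = 0.742), DESeq2 (0.0501) and limma-voom (0.998), with 756 genes at an unadjusted p under 0.05 in edgeR (4.15%).

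The same 20 genes were then followed in the mice that also carried Msh3 alleles, which share no library with the Q140 and WT groups. The libraries labelled Msh3+/- and Msh3-/- had more Msh3 counts, not fewer: the median was 58.2 CPM in Q140 Msh3+/-, 96.1 CPM in Q140 Msh3-/-, 60.6 CPM in Msh3+/- and 98.3 CPM in Msh3-/-. Single libraries ran from 54.4 to 64.7 CPM over both groups labelled Msh3+/- and from 83.2 to 110 CPM over both labelled Msh3-/-. No Q140 or WT library exceeded 23.7 CPM, so the levels separated the labelled Msh3 genotypes without overlap. Which part of the gene was altered is not stated, so the count does not show whether Msh3 was lost. With the Q140 allele in the libraries labelled Msh3+/-, all 20 genes had the direction seen with intact Msh3, 20 had an unadjusted p under 0.05, against 7.77% of all genes, and 9 were called, against 0.0512%. In the libraries labelled Msh3-/-, 18 had the same direction, 11 had an unadjusted p under 0.05, against 6.77% of all genes, and 4 were called, against 0.0205%. The 4 called on every Msh3 genotype were Abhd1, Atraid, Gm2420 and Tmc3, and 3 of them lie near Htt.

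The values on the other Msh3 genotypes stand beside those with intact Msh3 as a description. No difference in the Q140 effect between Msh3 genotypes passed a test. Tmc3 had log2 fold changes of 1.36 ± 0.185 in the libraries labelled Msh3+/- and 1.30 ± 0.22 in those labelled Msh3-/-, close to its 1.36 with intact Msh3. Its median level was 1.35 CPM in Q140, 1.2 CPM in Q140 Msh3+/- and 0.78 CPM in Q140 Msh3-/-. Without the Q140 allele it was 0.489 CPM in WT, 0.397 CPM in Msh3+/- and 0.295 CPM in Msh3-/-. Slc1a2 had log2 fold changes of -0.19 ± 0.041 and -0.15 ± 0.041, and Glul of -0.16 ± 0.039 in each. Enpp6 had 0.73 ± 0.124 and 0.22 ± 0.127: its level was 2.5, 3.29 and 4.55 CPM in Q140 Msh3+/-, against 1.3, 2.06 and 2.89 CPM in Msh3+/-, and 2.07, 2.57 and 3.48 CPM in Q140 Msh3-/-, against 1.68, 2.19 and 2.8 CPM in Msh3-/-. Zfp488 had 0.34 ± 0.0939 and -0.03 ± 0.0964, and Anln 0.48 ± 0.0993 and 0.10 ± 0.0981. Camk2n1 had -0.16 ± 0.0394 and -0.15 ± 0.0394, Ddit4l -0.45 ± 0.09 and -0.27 ± 0.0897, Cartpt -0.22 ± 0.104 and -0.04 ± 0.1, and H2-Bl -0.52 ± 0.161 and 0.11 ± 0.158.

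No gene passed the test of a difference in the Q140 effect between Msh3 genotypes. The interaction with the genotype labelled Msh3-/- gave 0 calls in edgeR (smallest adjusted p = 0.772), DESeq2 (0.248) and limma-voom (0.861), with 626 genes at an unadjusted p under 0.05 in edgeR (3.2%). The interaction with Msh3+/- also gave 0 calls in the 3 tools, with 646 genes at an unadjusted p under 0.05 (3.3%). Of the 20 genes, 9 had an unadjusted interaction p under 0.05 with Msh3-/- and 2 with Msh3+/-. In Enpp6 the difference to the Msh3-/- pair was -0.74 ± 0.176 and in Zfp488 -0.52 ± 0.133 (edgeR adjusted p = 0.772 and 0.95). The Q140 and WT libraries that chose the 20 genes are part of each interaction, so these counts are not independent of the choice.

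**Figure D5:**
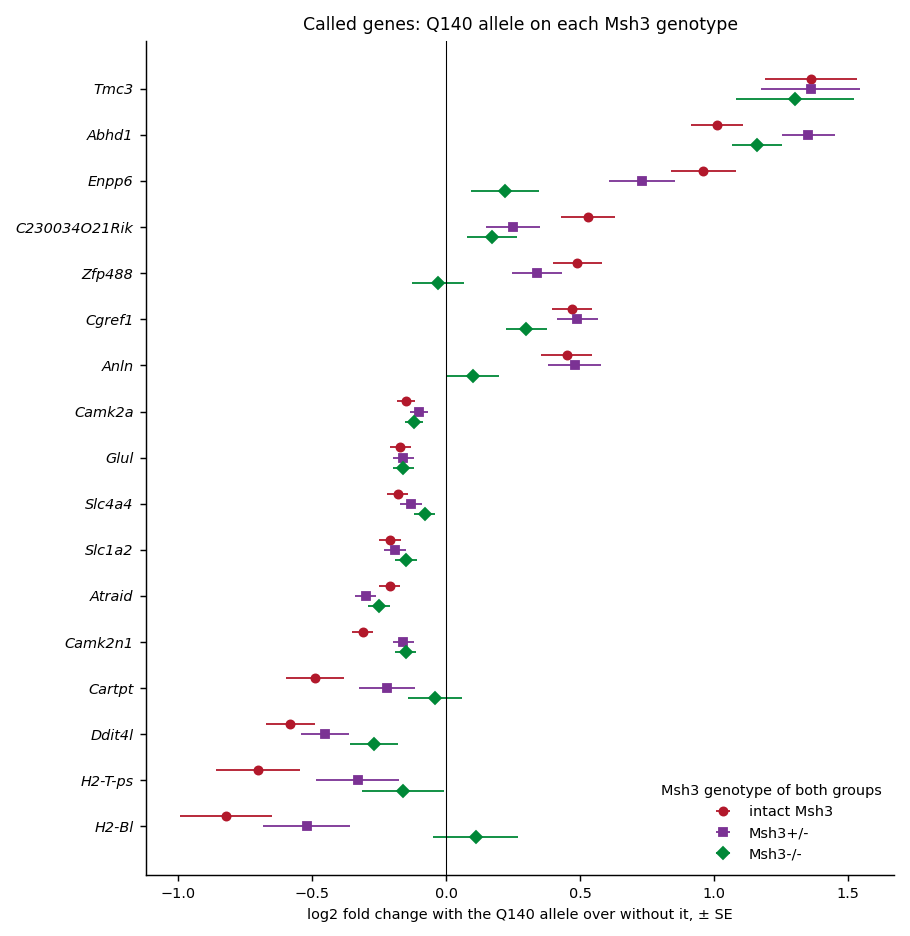
Log2 fold change with the Q140 allele over without it (horizontal axis, ± SE) for 17 called genes on 3 Msh3 genotypes: intact (circles), labelled Msh3+/- (squares) and labelled Msh3-/- (diamonds), 8 libraries a group; Gm2420 and Prl are left out for their larger scale. Tmc3, Glul and Slc1a2 have similar log2 fold changes on all 3, whereas Enpp6 is at 0.96, 0.73 and 0.22 and Zfp488 at 0.49, 0.34 and -0.03.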

How the data were processed

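RNA-seq counts of 48 mouse cortex libraries were analysed. A TruSeq stranded kit was used, per the labels' protocols. The submitters' processing notes list the tools STAR 2.7.5c, HTSeq 0.12.3 and SAMtools 1.10 and give mm10 and GRCm38 as builds, without saying what each did. The deposited values are whole-number counts per Ensembl gene; the deposited FPKM table was not used. Low genes were removed by filterByExpr at its defaults (count 10, total 15). The rest were scaled by TMM and fitted in edgeR 4.0.16 (R 4.3.3) by robust quasi-likelihood with 6 genotypes and sex over all 48 libraries; tests were two-sided, Benjamini-Hochberg adjusted over all genes tested, and called under 0.05. A further model of the 16 libraries gave the effects by sex. DESeq2 1.42.0, limma 3.58.1 (voom), filters, scalings, plate position, only the 16 Q140 and WT libraries, and libraries left out were alternatives. Named were Htt, Msh3, every called gene, the next 10 by p, and the called or leading members of 35 gene lists (590 genes, 573 tested); some, 1 called gene among them, are not reported here. The members and lists were chosen with earlier results of these data known. Scaling by DESeq2-type size factors (RLE) shifted the median of all genes by -0.0017 (log2). Totals ran from 42.8 to 68.3 M (mega) counts, and the median SE was 0.0561 among genes of at least 1 CPM. The deposited count columns, unlike CPM, differ in total; no 2 libraries of a group agreed within counting noise (chi-square per gene 7.71 to 35.5).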

Additional observations from a re-analysis of the deposited data

Results flagged for a closer look

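In 64 groups of 8 libraries, the Q140 and WT levels of Htt, Msh3, the 20 called genes and the next 10, 7 held a library far from the other 7; chance gives about 1 in 20, and the reasons were not tested. Prl reached 1.9 CPM in Q140 M2, where the next library had 0.0636, and 34 CPM in WT M2, where the next had 5.6. Gh followed the same libraries, with 0.767 CPM in Q140 M2 and 6.91 CPM in WT M2. Camk2a was lowest in Q140 M2, at 4340 CPM with the next library at 4690. Camk2n1 was highest in WT M4, at 2650 CPM with the next at 2440, and was called without that library as well. Erbin, not called, was highest in Q140 M4, at 81.7 CPM with the next at 71.6.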

How the results depend on the processing

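All 20 called genes kept their sign under the 30 other settings, as far as each setting tested them; Abhd1, Enpp6, Camk2n1, Tmc3, Ddit4l and Cgref1 were called under every one. Beside the 20 calls (8 higher, 12 lower), DESeq2 gave 34 (13 and 21). A fit of only the 16 Q140 and WT libraries gave 21 (8 and 13), of which 13 are among the 20. Plate column as a term gave 11 calls, 4 of them lower, and plate row 14, 6 of them lower. Leaving out libraries by pituitary or choroid plexus RNA was chosen after seeing the data: over 10 times the median (WT M2 and 2 Msh3+/- libraries) left 12 calls, 4 lower; over 5 times the median (7 libraries, among them WT M2, M3 and M4) left 7 calls, 5 higher and 2 lower. Slc1a2, Zfp488, Atraid and C230034O21Rik were among the genes whose call was lost when libraries over 5 times the median were left out. Leaving out each library in turn gave 13 to 23 calls, 5 to 15 of them lower and 6 to 12 higher. There were 13 calls without Q140 M2, WT F4 or WT M2. In these fits 10 of the 20 genes were called every time. The interactions had 0 calls under each setting run. Replicate numbers did not pair the groups: libraries of the same number correlated at -0.014 to 0.069, and 3 of 8 correlated best with their own number. A replicate block gave 27 calls, 19 of them shared. Limma-voom with the beginning of the sample name as a random block gave 23 calls, 19 of them shared. The causes of these differences were not tested. The median SE was 0.0561 on the log2 scale among genes of at least 1 CPM, with larger errors in genes of low level. Changes that are small beside these errors were not detectable with 8 libraries a group.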
